A study of Homo sapiens with 11 samples.

Results

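Expression of 8 genes of the cadherin adhesion system was examined: the classical and type II cadherins CDH1, CDH2 and CDH11, the giant atypical cadherin FAT1, and the catenins CTNNA1, CTNNB1, CTNND1 and JUP. They were taken by name from the 31325 gene rows of the series, and each of the 8 had 1 row. The rule lists names and sets no threshold on a measured value, but the 8 names were chosen with earlier results of these data known. The arrays came from 2 established human lines, MDA-MB-231 from breast cancer and SKOV3 (SKOV3.ip1 in the methods) from ovarian cancer. Each was transfected either with a mimic of miR-365a-3p or with a control miRNA, in 3 arrays per group except for the SKOV3 controls, which had 2, giving 11 in all. The labels put all groups at 48 h, whereas the description of the series gives 24 h. Nothing in the sources says whether the replicates were separate cultures, so p-values measure the spread between these arrays, which may be technical. The arrays do not measure the mature miRNA, so the level reached by the mimic was not checked here. The comparisons ask which mRNAs of the adhesion complex changed with the mimic in each line, whether the lines differed in that change, and how the lines differed without it.

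Classical cadherins are transmembrane proteins that bind the same cadherin on a neighbouring cell. Their cytoplasmic tails bind catenins: CTNND1 (p120-catenin) holds the cadherin at the membrane, CTNNB1 (beta-catenin) or its close relative JUP (plakoglobin) binds the tail further out, and CTNNA1 (alpha-catenin) connects that complex to actin. Beta-catenin is also the nuclear effector of Wnt signalling, and plakoglobin is also a desmosome protein. Carcinoma cells that lose epithelial character often exchange E-cadherin (CDH1) for N-cadherin (CDH2) or cadherin-11 (CDH11). FAT1, far larger than the classical cadherins, acts in cell polarity, actin organisation and growth control.

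The transfected miRNA is shown first, since its letters define the treatment of both miR groups. Bases 2 to 8 from the 5' end, the seed that pairs with target mRNAs, are in capitals.
miR-365a-3p: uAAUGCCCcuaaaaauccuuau
In RefSeq, on GRCh38.p14, this mature sequence of 22 bases lies at chr16:14309340-14309361 on the plus strand, and an identical one, miR-365b-3p, lies at chr17:31575478-31575499 on the plus strand. Of 2370 mature human miRNAs in that table, only these 2 carry the seed AAUGCCC. Target sites were not searched in the 8 mRNAs.

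Values are log2 signals, 1 per gene and array, which were quantile normalized across the 11 arrays. A gene near the floor of an array has little room to fall, and no detection values were used here, so the 60th percentile of the mean signals of all genes, 7.45, was taken as a line under which a signal is called near the floor. By that line CDH1, CDH11 and CTNND1 were near the floor in all 4 groups, and CDH2 was near it in MDA-MB-231 cells. FAT1, CTNNA1 and CTNNB1, 3 of the 8, were above it in the controls of both lines. Several facts of the whole series bear on these genes. The upper quartile of the deposited values was 7.56 to 8.04 over the arrays and lower in both miR groups than in their controls. On each array the median of 237 genes of families of small proteins minus that of 24 genes of families of large proteins was 0.03 to 0.58 in MDA-MB-231 controls and 2.59 to 2.97 with miR-365a-3p, and 0.90 to 1.00 in SKOV3 controls and 2.28 to 2.98 with miR-365a-3p, without overlap. ACTB, the cytoplasmic actin used as a control gene in many assays, fell by 3.28 (SE 0.34, limma adjusted p = 0.000199) in MDA-MB-231 cells and by 2.59 (SE 0.38, limma adjusted p = 0.00237) in SKOV3 cells, and GAPDH fell by 0.67 (limma adjusted p = 0.0128) in MDA-MB-231 cells. GAPDH in SKOV3 cells (-0.62, limma adjusted p = 0.0505) and TBP in both lines (-0.23 and -0.24, limma adjusted p = 0.0682 and 0.137) did not pass the test. Both sets of families were taken by the start of the gene symbol, among genes with a mean log2 signal above 8. For small proteins the starts were those of ribosomal and mitochondrial ribosomal proteins and of respiratory chain and ATP synthase subunits. For large proteins they were those of myosin, dynein, laminin, filamin, plexin and collagen symbols and SPT. Other genes that share these starts may be included. Protein length itself was not used. The balance of the mRNAs of these families, and ACTB mRNA, moved with the mimic in both lines. Their part in the changes below was not tested. In bulk cultures, less of an mRNA per cell and fewer cells that carry it cannot be told apart. The line labels were checked against markers. ERBB2, which is amplified in SKOV3, was at 10.9 in SKOV3 controls and 7.61 in MDA-MB-231 controls, and PAX8 at 8.18 and 7.40. Of the markers chosen for MDA-MB-231, VIM was high in both (13.7 and 13.8) and did not separate the lines. CD44 was at 10.5 in SKOV3 and 11.3 in MDA-MB-231 controls, whereas MSN went the other way, at 10.6 and 10.1. The blood cell markers PTPRC and CD3E were near the floor in all groups.

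FAT1 and CTNNA1 mRNAs were strongly downregulated with miR-365a-3p in both cell lines, JUP was downregulated to a smaller extent, and no member rose by the test. Of the 8 members, 3 fell in MDA-MB-231 cells, where 11.7% of all genes fell and 14.4% rose. The same 3 fell in SKOV3 cells, where 7.11% of all genes fell and 7.25% rose. All 3 therefore fell in both lines, as 5.39% of all genes did, while 5.76% of all genes rose in both. Among genes above the 60th percentile in the controls, as FAT1 and CTNNA1 were, the share that fell was larger, at 29.1% in MDA-MB-231 and 17.8% in SKOV3 cells. The median log2 fold change of the 8 members was -0.03 in MDA-MB-231 and -0.14 in SKOV3 cells, beside 0.01 in each line over all genes. Both lists of calls used limma with Benjamini-Hochberg adjustment over all 31325 genes and a threshold of 0.05.

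**Figure D1:**
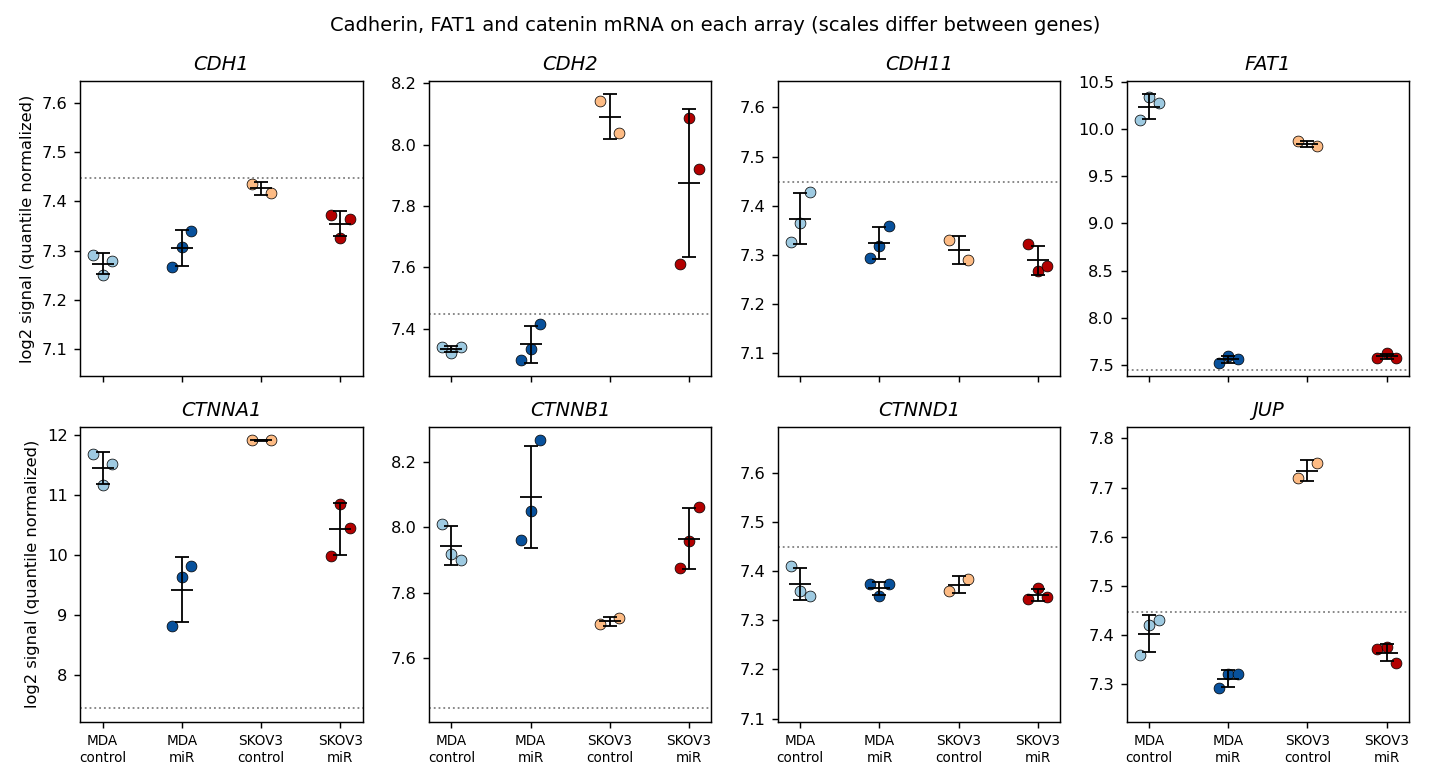
Log2 signal (vertical axis, quantile normalized, a different scale for each gene) of the 8 members on each of the 11 arrays, by group; points are arrays, bars the mean and SD, and the dotted line the 60th percentile of gene means, 7.45. The miR-365a-3p arrays of FAT1 and CTNNA1 lie below all control arrays in both lines, and CDH1, CDH11 and CTNND1 stay under the dotted line in every group.

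Of the cadherins, CDH1 encodes E-cadherin, the adhesion receptor of epithelia. Its signal in MDA-MB-231 cells was 7.29, 7.25 and 7.28 in the controls and 7.27, 7.31 and 7.34 with miR-365a-3p. The SKOV3 signals were 7.44 and 7.42 in the controls and 7.37, 7.33 and 7.36 with miR-365a-3p. The SKOV3 miR-365a-3p arrays lay just below the SKOV3 controls, the MDA-MB-231 groups overlapped, and all of these values are near the floor. The difference was 0.03 (SE 0.02, limma adjusted p = 0.450) in MDA-MB-231 and -0.07 (SE 0.03, limma adjusted p = 0.132) in SKOV3 cells. With the deposited values, median centring or cyclic loess in place of quantile normalization, CDH1 passed the test for a fall in SKOV3 cells, with limma adjusted p from 0.00890 to 0.0260 and log2 fold changes from -0.13 to -0.10. Median centring also gave a rise in MDA-MB-231 cells of 0.07 (limma adjusted p = 0.0451).

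CDH2, N-cadherin, is the cadherin of neural and mesenchymal cells. On the 6 MDA-MB-231 arrays it was at 7.41 or lower, near the floor with and without the mimic. In SKOV3 cells it was at 8.14 and 8.04 in the controls and at 7.61, 8.09 and 7.92 with miR-365a-3p. Among the miR-365a-3p arrays 1 lay between the controls and the others below them, so the groups overlapped, and the difference of -0.22 (SE 0.11) did not pass the test (limma adjusted p = 0.304). It passed with the deposited values (-0.49, limma adjusted p = 0.0283) and with median centring (-0.45, limma adjusted p = 0.0398). CDH11, cadherin-11 of mesenchymal and bone-forming cells, ranged from 7.27 to 7.43 over all 4 groups, and its differences were -0.05 (95% interval -0.12 to 0.02) in MDA-MB-231 and -0.02 (95% interval -0.10 to 0.06) in SKOV3 cells. At this signal the arrays left little room to see a fall in CDH11.

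FAT1 had the largest response of the 8 members in both lines. In MDA-MB-231 cells its signal was 10.10, 10.35 and 10.28 in the controls and 7.52, 7.59 and 7.56 with miR-365a-3p. The SKOV3 arrays read 9.87 and 9.83 in the controls and 7.57, 7.62 and 7.57 with miR-365a-3p. All 6 miR-365a-3p arrays lay far below every control array of their line, and the SD within a group was 0.03 to 0.13. The log2 fold change was -2.68 (SE 0.06, 95% interval -2.81 to -2.55, limma adjusted p = 2.85e-07) in MDA-MB-231 cells. The log2 fold change in SKOV3 cells was -2.26 (SE 0.06, 95% interval -2.40 to -2.12, limma adjusted p = 1.42e-06). The miR-365a-3p means, 7.56 and 7.59, lie just above the line taken as the floor, so the fold changes are bounded by how low the arrays can read. Of the genes above that line in the controls, 37 of 11955 in MDA-MB-231 and 49 of 12064 in SKOV3 cells, FAT1 included, fell at least as far. The call in both lines was kept under all alternatives run, with log2 fold changes from -2.78 to -2.47 in MDA-MB-231 and from -2.39 to -2.16 in SKOV3 cells when no array was left out.

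**Figure D2:**
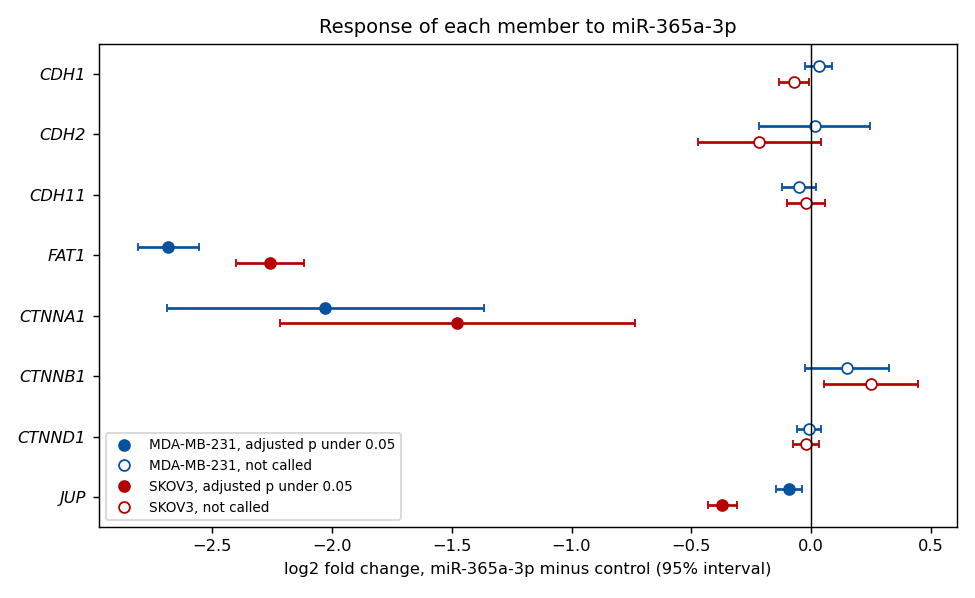
Log2 fold change, miR-365a-3p minus control, of each member (horizontal axis) with its 95% interval from limma, in MDA-MB-231 (blue) and SKOV3 (red); filled points have a limma adjusted p under 0.05. FAT1 (-2.68 and -2.26) and CTNNA1 (-2.03 and -1.48) lie far to the left of the other 6 members.

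Of the catenins, CTNNA1 carries the link from the cadherin complex to actin filaments. Its signal in MDA-MB-231 cells was 11.68, 11.16 and 11.51 in the controls and 8.81, 9.63 and 9.82 with miR-365a-3p. The SKOV3 signals were 11.90 and 11.91 in the controls and 9.99, 10.85 and 10.46 with miR-365a-3p. In both lines all miR-365a-3p arrays lay below all controls, but they spread more widely, with an SD of 0.54 and 0.43 against 0.27 and 0.0049. CTNNA1 fell by 2.03 on the log2 scale (SE 0.29, limma adjusted p = 0.00109) in MDA-MB-231 cells. The fall was smaller in size in SKOV3 cells, with a log2 fold change of -1.48 (SE 0.33, limma adjusted p = 0.0170). Unlike FAT1 it stayed well above the floor with the mimic, at means of 9.42 and 10.4. Of the genes above the floor line in the controls, 125 and 300 fell at least as far. The fall in SKOV3 cells rests on both control arrays: without SKOV3 control replicate 1 it was -1.50 (limma adjusted p = 0.101), and without replicate 2 it was -1.48 (limma adjusted p = 0.116).

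JUP, plakoglobin, can take the place of beta-catenin on cadherin tails and is also part of desmosomes. In SKOV3 cells it was at 7.72 and 7.75 in the controls and at 7.37, 7.38 and 7.34 with miR-365a-3p. MDA-MB-231 cells had 7.36, 7.42 and 7.43 in the controls and 7.29, 7.32 and 7.32 with miR-365a-3p. The groups did not overlap in either line, but in MDA-MB-231 cells both groups were near the floor. The log2 fold change in SKOV3 cells was -0.37 (SE 0.03, limma adjusted p = 6.65e-05), and the level it reached was near the floor. In MDA-MB-231 cells the log2 fold change was -0.09 (SE 0.02, limma adjusted p = 0.0191). That call was lost with cyclic loess (-0.03, limma adjusted p = 0.388), with each line fitted alone, among genes above the median signal, and without MDA-MB-231 miR-365a-3p replicate 1 (-0.08, limma adjusted p = 0.0679), control replicate 2 (-0.08, limma adjusted p = 0.0656) or control replicate 3 (-0.08, limma adjusted p = 0.0749).

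CTNNB1, beta-catenin, was the member whose mean was higher with miR-365a-3p in both lines, without passing the test in either. In MDA-MB-231 cells it was at 8.01, 7.92 and 7.90 in the controls and at 7.96, 8.05 and 8.27 with miR-365a-3p. In SKOV3 cells it was at 7.70 and 7.72 in the controls and at 7.88, 7.96 and 8.06 with miR-365a-3p. The MDA-MB-231 groups overlapped, whereas all SKOV3 miR-365a-3p arrays lay above both controls. The difference was 0.15 (SE 0.08, limma adjusted p = 0.225) in MDA-MB-231 cells, where it turned to -0.20 with the deposited values and -0.16 with median centring. In SKOV3 cells the difference was 0.25 (SE 0.09, 95% interval 0.06 to 0.45, limma adjusted p = 0.0950), and it shrank to 0.01 with the deposited values. It passed the test without MDA-MB-231 miR-365a-3p replicate 3 (0.26, limma adjusted p = 0.0285). That array of the other line enters through the shared spread and through the quantile normalization across arrays. CTNND1, p120-catenin, was near the floor on every array, from 7.34 to 7.41, and its differences were -0.01 (95% interval -0.06 to 0.04) and -0.02 (95% interval -0.07 to 0.03), at a signal with little room to see a fall.

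The exact test permuted the treatment within the cell lines over 200 arrangements and was two-sided on the mean of both log2 fold changes. It gave its smallest possible p of 0.005 for FAT1 (mean -2.47), CTNNA1 (mean -1.75) and JUP (mean -0.23). For CTNNB1 the mean was 0.20 and the exact permutation p was 0.015, with the limit that its sign depends on the scaling. The exact permutation p was 0.44 for CDH1, 0.395 for CDH2, 0.135 for CDH11 and 0.255 for CTNND1. These 8 exact p-values are not adjusted for the number of tests. In the count of arrays, 3 of the 8 members had every miR-365a-3p array below every control array in both lines, as did 10.3% of all genes.

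**Figure D3:**
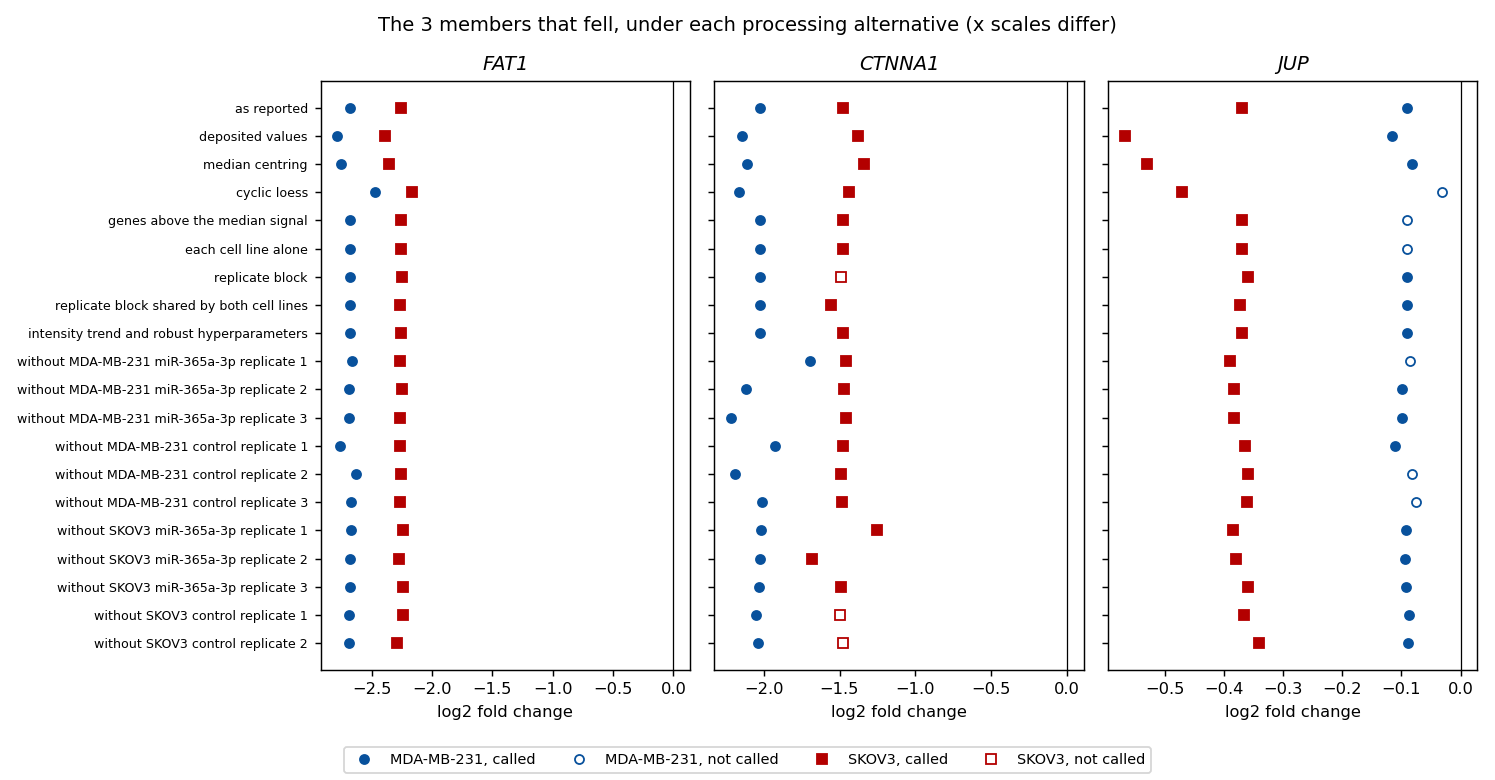
Log2 fold change of FAT1, CTNNA1 and JUP (horizontal axis, a different scale for each gene) as reported and under each alternative of processing or with 1 array left out (rows); circles are MDA-MB-231 and squares SKOV3 cells, filled where the limma adjusted p was under 0.05. No point crosses 0, and the open points are those of CTNNA1 in SKOV3 cells and JUP in MDA-MB-231 cells where the call was lost.

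Promoters of the 3 members that moved together are shown with the GC boxes in capitals. A GC box is GGGCGG, which reads as CCGCCC when it lies on the opposite strand, and overlapping matches run together. These are the 250 bases before each RefSeq start, read along the gene's strand on GRCh38.p14: FAT1 at chr4:186726697-186726946 (minus), CTNNA1 at chr5:138753175-138753424 (plus) and JUP at chr17:41786712-41786961 (minus).
FAT1: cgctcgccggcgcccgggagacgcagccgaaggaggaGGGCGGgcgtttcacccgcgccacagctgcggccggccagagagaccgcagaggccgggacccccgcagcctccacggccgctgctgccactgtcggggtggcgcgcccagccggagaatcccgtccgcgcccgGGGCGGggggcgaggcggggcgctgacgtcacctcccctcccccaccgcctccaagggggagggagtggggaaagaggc
CTNNA1: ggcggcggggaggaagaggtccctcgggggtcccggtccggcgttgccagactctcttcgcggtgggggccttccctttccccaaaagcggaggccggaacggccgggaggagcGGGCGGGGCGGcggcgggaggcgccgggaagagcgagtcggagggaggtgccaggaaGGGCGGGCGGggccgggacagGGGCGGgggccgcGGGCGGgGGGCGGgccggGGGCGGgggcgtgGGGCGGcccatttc
JUP: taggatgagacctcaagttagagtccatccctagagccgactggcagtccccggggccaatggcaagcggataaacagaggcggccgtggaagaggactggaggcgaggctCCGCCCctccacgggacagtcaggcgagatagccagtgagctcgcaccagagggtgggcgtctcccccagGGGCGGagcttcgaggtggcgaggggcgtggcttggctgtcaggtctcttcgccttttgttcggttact
The CTNNA1 promoter holds 9 GC boxes and is 80% G or C, the FAT1 promoter holds 2 and is 78% G or C, and the JUP promoter holds 2 and is 63.6% G or C. Of the members that did not fall, CTNNB1 has 3 and CDH2 has 1 in its promoter, and the promoters of CDH1, CDH11 and CTNND1 were not analysed here. At least 1 GC box is in 42.6% of 35116 promoters of the same length. The E-box CAGGTG, which reads as CACCTG on the opposite strand and is the motif that SNAI1 and ZEB1 bind, was found in none of these 5 promoters and in 17.5% of all. A match is a description of letters only.

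The responses of the lines differed by the test for 2 of the 8 members, FAT1 and JUP, where 2.54% of all genes were called. FAT1 fell further in MDA-MB-231 cells, by a difference of -0.42 (SE 0.08, limma adjusted p = 0.0373). Its control level was higher in that line and its level with miR-365a-3p was 7.56 in MDA-MB-231 and 7.59 in SKOV3 cells, both close to the floor. This call was lost under the deposited values (-0.39, limma adjusted p = 0.150), median centring, cyclic loess and the intensity trend. With 1 array left out it was kept without MDA-MB-231 control replicate 1, MDA-MB-231 control replicate 2 or SKOV3 miR-365a-3p replicate 1, and lost without any of the other 8 (limma adjusted p from 0.0767 to 0.185). JUP fell further in SKOV3 cells, by a difference of 0.28 (SE 0.04, limma adjusted p = 0.00503), and its level in MDA-MB-231 controls was near the floor to begin with. CTNNA1 differed by -0.55 (95% interval -1.54 to 0.44, limma adjusted p = 0.707), so that a large difference in either line's favour lies within the interval. CDH1 differed by 0.10 (limma adjusted p = 0.251), and passed the test under the deposited values, median centring and cyclic loess (limma adjusted p from 0.0316 to 0.0463). The differences of CDH2 (0.23, limma adjusted p = 0.626), CDH11 (-0.03, limma adjusted p = 0.891), CTNNB1 (-0.10, limma adjusted p = 0.818) and CTNND1 (0.01, limma adjusted p = 0.943) did not pass the test.

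Without the mimic, the lines differed in 4 of the 8 members. CDH1, CDH2 and JUP were higher in SKOV3 controls, as 8.34% of all genes were, and FAT1 was higher in MDA-MB-231 controls, as 7.76% of all genes were. CDH2 differed most, at a mean of 7.33 in MDA-MB-231 and 8.09 in SKOV3 cells, a log2 difference of -0.76 (SE 0.11, limma adjusted p = 0.00182). Its MDA-MB-231 signal was near the floor, which bounds the difference the arrays can show. FAT1 was higher by 0.39 (SE 0.06, limma adjusted p = 0.00256) in MDA-MB-231 cells, and JUP was higher in SKOV3 cells (-0.33, limma adjusted p = 4.97e-05). The difference in CDH1 was -0.15 (SE 0.03, limma adjusted p = 0.00454) between groups that were both near the floor, and its call was lost without SKOV3 control replicate 1 (-0.14, limma adjusted p = 0.0531). CTNNA1 (-0.46, limma adjusted p = 0.506) and CTNNB1 (0.23, limma adjusted p = 0.128) did not pass the test, and CTNNB1 passed it without MDA-MB-231 miR-365a-3p replicate 3 (limma adjusted p = 0.0353). CDH11 (0.06, limma adjusted p = 0.353) and CTNND1 (0.00, limma adjusted p = 0.989) were near the floor in both control groups. The cell line and anything else that differed between the cultures cannot be told apart.

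Signals of the rest of the cadherin family were also compared between the controls. No detection values were used here, so a low signal does not establish that a line lacks the mRNA. CDH6 was higher in SKOV3 controls (log2 difference -1.42, limma adjusted p = 3.13e-05), as were CDH13, the GPI-anchored T-cadherin (-0.84, limma adjusted p = 4.21e-06), and CDH16 (-0.46, limma adjusted p = 9.88e-05). CDH4, retinal cadherin, was higher in MDA-MB-231 controls (1.08, limma adjusted p = 1.45e-05), as was CDH10 (0.34, limma adjusted p = 0.000423). Of 17 cadherins beyond the 8 members, 4 were higher in SKOV3 and 2 in MDA-MB-231 controls, beside 8.34% and 7.76% of all genes. In the FAT, Dachsous and CELSR group, CELSR2, a planar polarity receptor, was higher in SKOV3 controls (-1.50, limma adjusted p = 8.19e-07), and FJX1, a relative of the Four-jointed kinase of Drosophila, was higher in MDA-MB-231 controls (2.55, limma adjusted p = 1.30e-05). FAT1 was the FAT gene above the floor line, since FAT2, FAT3 and FAT4 were below it in both control groups. Among tight junction and epithelial genes, EPCAM was higher in SKOV3 controls by the largest amount (-2.73, limma adjusted p = 2.09e-05), followed by F11R (-1.07, limma adjusted p = 0.000481) and CLDN1 (-0.84, limma adjusted p = 0.000394).

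**Figure D4:**
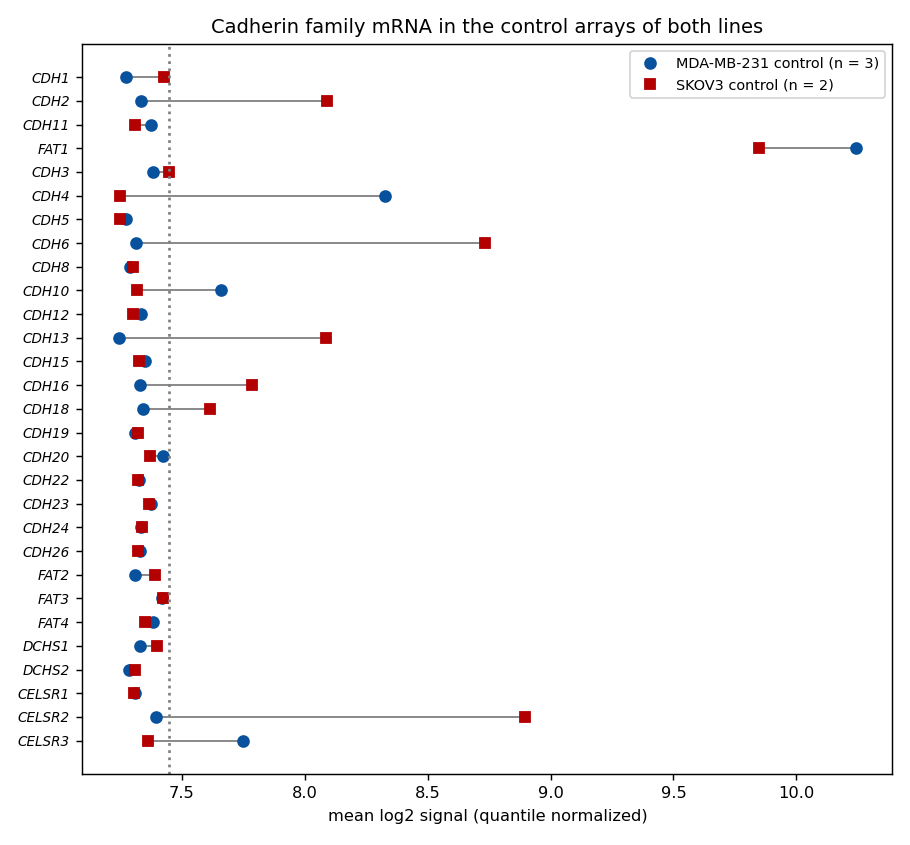
Mean log2 signal (horizontal axis) of each member of the cadherin and FAT, Dachsous and CELSR genes in MDA-MB-231 (blue circles, n = 3) and SKOV3 (red squares, n = 2) control arrays; the dotted line is the 60th percentile of gene means, 7.45. Signals of different genes are not compared. For example, CDH2, CDH6, CDH13 and CELSR2 are past the line in SKOV3 cells and not in MDA-MB-231 cells, CDH4 is the reverse, and FAT1 is far past it in both.

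The further cadherins that fell in a line were above the floor line in its controls, and a cadherin under that line has little room to fall. CDH4 fell in MDA-MB-231 cells (-1.04, limma adjusted p = 1.42e-05) and had a log2 fold change of 0.03 in SKOV3 cells, where it was near the floor. CDH13 (-0.55, limma adjusted p = 0.000104), CDH6 (-0.41, limma adjusted p = 0.0305) and CDH16 (-0.15, limma adjusted p = 0.0377) fell in SKOV3 cells. Of the 17 further cadherins, 1 fell and 1 rose in MDA-MB-231, 3 fell and 1 rose in SKOV3, and 0 moved the same way in both. Of all genes, 11.7% fell and 14.4% rose in MDA-MB-231 cells, and 7.11% fell and 7.25% rose in SKOV3 cells. Only 2 and 5 of the 17 were above the floor line in the controls, where 29.1% and 17.8% of such genes fell. Without SKOV3 control replicate 1 or 2, 1 of the 17 fell in SKOV3 cells. CDH6 and CDH16 lost their calls without some other arrays too. The rises were CDH10 in MDA-MB-231 (0.14, limma adjusted p = 0.0199) and CDH18 in SKOV3 cells (0.17, limma adjusted p = 0.0351). With the deposited values 0 of the 17 rose, and CDH10 turned to a fall that passed the test (-0.12, limma adjusted p = 0.0472). CELSR2 fell in SKOV3 cells (-1.51, limma adjusted p = 3.83e-06) and CELSR3 in MDA-MB-231 cells (-0.31, limma adjusted p = 0.000574), so that of the 9 genes of that group 1 fell in each line and 0 in both. Of 14 desmosome genes, DSG2 (-1.50, limma adjusted p = 0.00577) and EVPL (-0.35, limma adjusted p = 0.000733) fell in MDA-MB-231 cells. DSP (-0.85, limma adjusted p = 0.000601) and PPL (-0.29, limma adjusted p = 0.00103) fell in SKOV3 cells. So 2 of the 14 fell in each line, beside the same shares of all genes. Of the 9 and the 14, 2 and 6 were above the floor line in MDA-MB-231 controls, and 1 and 6 in SKOV3 controls.

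Around CTNNA1, actin linkers of the adherens junction were counted together with the nectins, its immunoglobulin-type adhesion receptors. Of these 20 genes, 11 fell and 0 rose in MDA-MB-231, 9 fell and 1 (PVRL3, 0.41, limma adjusted p = 0.0461) rose in SKOV3, and 8 fell in both, with medians of -0.16 and -0.10. Beside these counts, 11.7% of all genes fell in MDA-MB-231, 7.11% in SKOV3 cells and 5.39% in both, and of genes above the floor line in the controls, as 14 and 16 of the 20 were, 29.1% and 17.8% fell. Whether the list differs from other genes was not tested, here and for the lists that follow. The list was counted on these arrays with earlier results known, and without SKOV3 control replicate 1 or 2 the number that fell in both was 5 or 4. EVL, an Ena/VASP protein of actin filament ends, had log2 fold changes of -2.13 (limma adjusted p = 0.000101) in MDA-MB-231 and -2.48 (limma adjusted p = 0.000170) in SKOV3 cells. ACTN1, the actin cross-linker alpha-actinin-1, had -2.78 and -1.81 (limma adjusted p = 0.000106 and 0.00330). ZYX, zyxin, a LIM protein of stressed actin, had -1.86 and -1.68 (limma adjusted p = 4.91e-05 and 0.000305). Of the 7 catenin relatives, PKP4, a p120-catenin relative (-1.21, limma adjusted p = 0.000440), and CTNNBL1 (-0.47, limma adjusted p = 0.0344) fell in MDA-MB-231 cells, and CTNNAL1 (0.54, limma adjusted p = 0.0170) rose in SKOV3 cells. Only 3 of the 7 were above the floor line in the controls of each line. Of all genes, 11.7% fell and 14.4% rose in MDA-MB-231, and 7.11% fell and 7.25% rose in SKOV3 cells. Without SKOV3 control replicate 1 or 2, 1 of the 7 fell in MDA-MB-231 and 0 rose in SKOV3 cells, and with cyclic loess 1 fell in MDA-MB-231 cells.

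**Figure D5:**
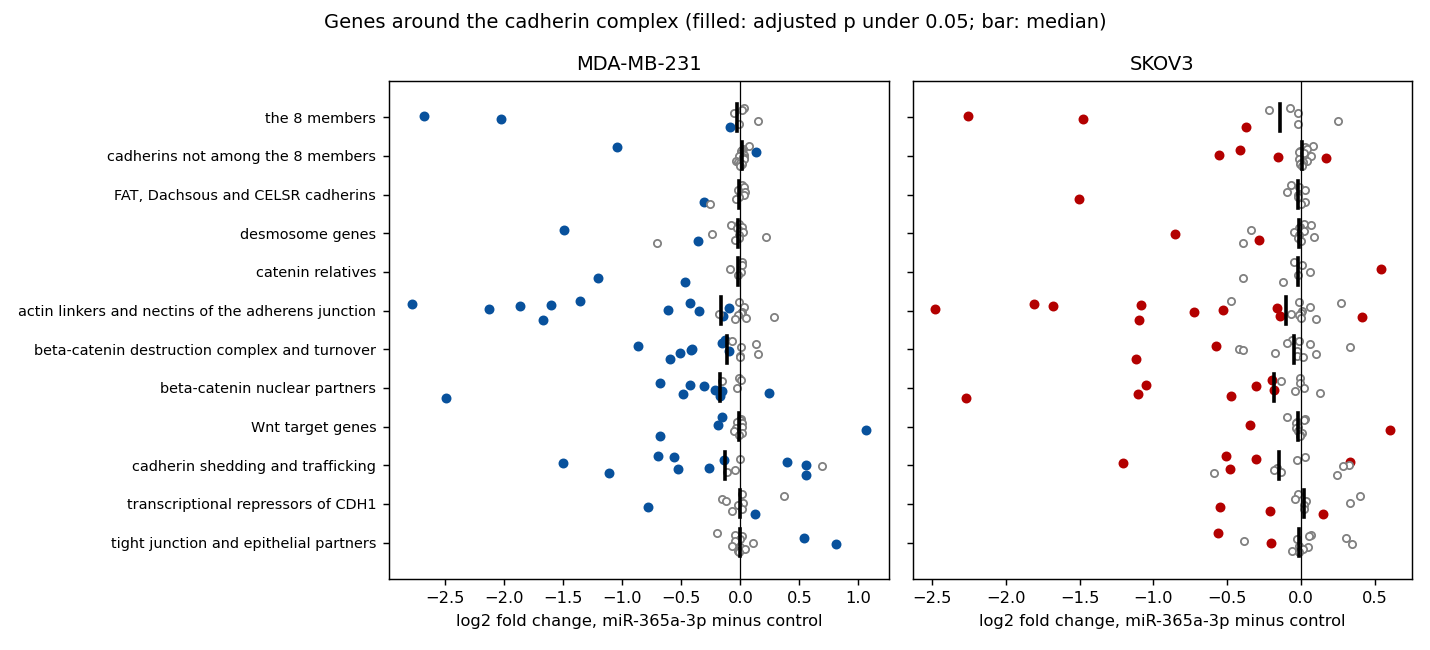
Log2 fold change, miR-365a-3p minus control (horizontal axis), of the 8 members and of the genes of 11 lists around the cadherin complex (rows) in MDA-MB-231 (left) and SKOV3 (right); each point is a gene, filled where the limma adjusted p was under 0.05, and the black bar is the median of the list. The points furthest to the left include FAT1 and CTNNA1 among the members, ACTN1 and EVL among the actin linkers and SMARCA4 among the nuclear partners.

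Around CTNNB1, whose own mRNA did not pass the test, genes of its turnover and of its nuclear complex were counted. Of 14 genes of the destruction complex and of beta-catenin turnover, 8 fell in MDA-MB-231, 2 in SKOV3 and 2 in both, and 0 rose. Over all genes, 11.7% fell in MDA-MB-231, 7.11% in SKOV3 and 5.39% in both, and 14.4% and 7.25% rose. Above the floor line in the controls lay 10 and 9 of the 14, and of all genes above it 29.1% and 17.8% fell. Without SKOV3 control replicate 1 or 2 the number that fell in MDA-MB-231 cells was 5. GSK3B, a kinase that marks beta-catenin for destruction, had log2 fold changes of -0.87 and -0.58 (limma adjusted p = 6.38e-05 and 0.00179), and USP9X, a deubiquitinase, of -0.59 and -1.12 (limma adjusted p = 0.00257 and 0.000401). With the deposited values 6 of the 14 fell in both, and with median centring 4. Of 13 nuclear partners, 8 fell and 1 (CDC73, 0.24, limma adjusted p = 0.00336) rose in MDA-MB-231, 7 fell in SKOV3 and 6 fell in both, beside 11.7%, 7.11% and 5.39% of all genes. Above the floor line lay 10 and 9 of the 13, where 29.1% and 17.8% of such genes fell. SMARCA4, the ATPase of a chromatin remodelling complex, had log2 fold changes of -2.49 and -2.27 (limma adjusted p = 9.07e-06 and 4.42e-05), the acetyltransferase gene CREBBP of -0.49 and -1.10 (limma adjusted p = 0.0145 and 0.000919), and BCL9, a bridge from beta-catenin to PYGO proteins, of -0.42 and -1.05 (limma adjusted p = 0.000308 and 1.11e-05). Without SKOV3 control replicate 2 the number that fell in both was 4.

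Of 13 target genes of Wnt signalling, 3 fell and 1 rose in MDA-MB-231 and 1 fell and 1 rose in SKOV3 cells, where 11.7% and 7.11% of all genes fell and 14.4% and 7.25% rose. Only 4 and 3 of the 13 were above the floor line in the controls. With the deposited values 2 fell and 0 rose in SKOV3 cells. DKK1, a secreted Wnt antagonist, had log2 fold changes of 1.07 and 0.60 (limma adjusted p = 0.000243 and 0.0141), and ZNRF3, which removes Wnt receptors, of -0.19 and -0.35 (limma adjusted p = 0.00159 and 0.000247). The DKK1 call in SKOV3 cells was lost with the deposited values, median centring, cyclic loess, each line fitted alone and without either SKOV3 control array. LEF1, a DNA-binding partner of beta-catenin that is also a Wnt target, fell in MDA-MB-231 cells (-0.68, limma adjusted p = 1.73e-06) and had -0.01 in SKOV3 cells, where it was near the floor.

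Of 14 genes of cadherin shedding and trafficking, 7 fell and 3 rose in MDA-MB-231, 4 fell and 1 rose in SKOV3, and 3 fell in both. All 14 were above the floor line in the controls of both lines, where 29.1% and 17.8% of such genes fell. Over all genes, 5.39% fell in both lines, 14.4% rose in MDA-MB-231 and 7.25% rose in SKOV3 cells. Without SKOV3 control replicate 2 the number that fell in SKOV3 cells was 2. NCSTN, nicastrin of gamma-secretase, had log2 fold changes of -1.50 and -1.21 (limma adjusted p = 0.000173 and 0.00188), ADAM10, which cleaves cadherins at the cell surface, of -0.70 and -0.51 (limma adjusted p = 0.00126 and 0.0198), and the ubiquitin ligase gene CBLL1 of -0.53 and -0.48 (limma adjusted p = 0.000256 and 0.00144). PSEN2, another part of gamma-secretase, rose by 0.40 and 0.33 (limma adjusted p = 0.000107 and 0.000968), and lost both calls with the deposited values and median centring. Of 10 transcriptional repressors of CDH1, 1 fell and 1 rose in MDA-MB-231, and 2 fell and 1 rose in SKOV3 cells. Of all genes, 11.7% fell and 14.4% rose in MDA-MB-231, and 7.11% fell and 7.25% rose in SKOV3 cells. Of the 10, 6 were above the floor line in the controls of each line. TCF3 fell in both lines, with log2 fold changes of -0.78 and -0.55 (limma adjusted p = 3.98e-05 and 0.000859). The corepressor CTBP2 rose in both, by 0.12 and 0.15 (limma adjusted p = 0.0144 and 0.0176), and turned negative with the deposited values, without passing the test. By contrast, CTBP1 of the same list fell in SKOV3 cells (-0.21, limma adjusted p = 0.0165). Without SKOV3 control replicate 1 or 2, 1 of the 10 fell and 0 rose in SKOV3 cells. Of 13 tight junction and epithelial genes, EPCAM (0.81, limma adjusted p = 0.00678) and CLDN7 (0.54, limma adjusted p = 0.0181) rose in MDA-MB-231 cells, and CLDN1 (-0.56, limma adjusted p = 0.00520) and CGN (-0.20, limma adjusted p = 0.0182) fell in SKOV3 cells. So 2 of the 13 rose in MDA-MB-231 and 2 fell in SKOV3 cells, beside the shares of all genes given above. Of the 13, 4 and 7 were above the floor line in the controls. With the deposited values 0 of the 13 rose in MDA-MB-231 and 5 fell in SKOV3 cells. In SKOV3 cells 1 fell without SKOV3 control replicate 1 and 0 without replicate 2.

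Over the 11 arrays, the genes most like each member were found by Pearson correlation among 12531 rows above the 60th percentile of gene means. The arrays share their 4 groups, so the values describe a pattern over groups. ARHGAP23 (r = 0.998), PATL1 (r = 0.995) and ACVR1 (r = 0.995) were the most like FAT1, and PATL1 also fell by a similar amount (-2.74 and -2.15). AMY1C (r = 0.992), CCNF (r = 0.988) and ELOVL5 (r = 0.987) were the most like CTNNA1. MAGED1 (r = 0.986), SHANK3 (r = 0.986) and ULK1 (r = 0.985) were the most like JUP, RHBDL3 (r = 0.994), LOC653506 (r = 0.993) and RAP1GAP (r = 0.990) the most like CDH2, and LOC100132402 (r = 0.956), STAM2 (r = 0.955) and ACBD5 (r = 0.942) the most like CTNNB1. For members near the floor the likeness was lower, with C5orf13 (r = 0.941), GNB2 (r = 0.927) and C1orf93 (r = 0.925) for CDH1, ST3GAL3 (r = 0.917), WDR77 (r = 0.907) and LOC647243 (r = 0.899) for CDH11, and DENND4A (r = 0.803), MTMR2 (r = 0.794) and SLC30A9 (r = 0.768) for CTNND1.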

How the data were processed

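Biotinylated cRNA of the 11 samples was measured on Illumina HumanHT-12 v4 BeadChips. The authors quantile normalized the arrays with lumi, and the deposited table holds log2 values with 1 row for each gene. Whether the transformation was log2 or variance-stabilizing, how probes of a gene were combined and whether background was removed are not given in the sources used here. The deposited columns did not share a distribution, and were quantile normalized here. Means of the 4 groups were fitted with limma 3.58.1 in R 4.3.3 (lmFit, eBayes) to all 31325 rows, with Benjamini-Hochberg adjustment and a threshold of 0.05. The fit was tested on simulated data. No 2 arrays were identical. The precision is limited by the number of arrays.

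The members and lists were chosen with earlier results of these data known. The genes named were all members, per list up to 3 genes that fell and 3 that rose the most in both lines, up to 3 cadherin or tight junction genes per direction between the controls, the 3 genes most like each member, and genes whose responses differed between lines. Some of the genes behind counts of 5 or fewer, FAT2, FAT3, FAT4, PVRL3 and control genes were added to the rule once their values had been seen. The families of small and large proteins were defined by patterns of gene symbols. Of 141 list genes measured, 135 had a current symbol in the RefSeq table of GRCh38.p14. A planned grouping of genes by protein length was not run, since no protein table was used here. Alternatives were the deposited values, median centring, cyclic loess, genes above the median signal, each line alone, a replicate block within or across lines, an intensity trend with robust hyperparameters, calls only at a log2 change of 0.5 or more in size, and leaving out every array in turn.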

Additional observations from a re-analysis of the deposited data

Results flagged for a closer look

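The responses of the 2 lines differed by the interaction term of limma for the following genes, each value being the log2 fold change in MDA-MB-231 minus that in SKOV3 cells. Among the members this was so for FAT1 (-0.42) and JUP (0.28). Among cadherins and their relatives it was so for CDH4 (-1.07), CDH13 (0.59), CELSR2 (1.47) and CELSR3 (-0.33), and among desmosome genes for DSP (0.61), PPL (0.24) and EVPL (-0.36). The actin linker genes LIMA1 (-0.70) and PLEKHA7 (0.74), the nuclear partners BCL9 (0.63), TCF7L1 (0.20), LEF1 (-0.67) and EP300 (0.30), and CGN of the tight junction (0.31) differed too. These 16 came from the 8 members and the 141 genes of the lists, and 2.54% of all genes had a called difference. In all 16, the line with the smaller response was the line with the lower control mean. In 11 of the 16 that mean was under the 60th percentile of gene means, where there is little room to fall. The same control arrays enter the response and the control mean, and the 16 were picked for a called difference. The pattern is therefore partly fixed in advance. How much of each difference comes from that limit was not tested.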

How the results depend on the processing

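The falls of FAT1 in both lines and of CTNNA1 in MDA-MB-231 cells passed the test under all alternatives run. The number of members called in SKOV3 cells was 5, not 3, with the deposited values and with median centring, which added CDH1 and CDH2. For the difference between responses, 2 members were called as reported, 0 with the replicate block within lines, 1 with the block shared by both lines, 1 with the intensity trend and robust hyperparameters, 0 where a log2 change of 0.5 in size was asked for, and 1 to 2 when 1 array was left out. Between the controls, 1 member of 4 kept its call at 0.5. Same-numbered arrays had correlations of deviations from their group means of -0.12 to 0.23 in MDA-MB-231 and -0.07 to 0.04 in SKOV3 cells. Deviations in groups of 2 or 3 arrays are tied to each other, and those of the 2 SKOV3 controls are mirror images. These values therefore cannot show whether arrays were paired. With the replicate number as a block within lines, 6 of 13 nuclear partners became 3 that fell in both lines. CTNNA1 in SKOV3 cells (-1.49, limma adjusted p = 0.104) was then no longer called. Nor were FAT1 (-0.43, limma adjusted p = 0.126) and JUP (0.27, limma adjusted p = 0.0885) for the difference, and CDH1 between the controls (-0.16, limma adjusted p = 0.0588). Some signs turned, not all of them near 0. CDH2 in MDA-MB-231 cells was -0.0028 with the deposited values and -0.0187 to 0.0412 with an array left out. CDH11 in SKOV3 cells was 0.0084 with median centring. CTNNB1 in MDA-MB-231 cells was -0.20 with the deposited values and -0.16 with median centring. CTNND1 with an array left out was -0.0203 to 0.00998 in MDA-MB-231 cells, -0.00059 to 0.0301 for the difference and -0.0173 to 0.0132 between the controls, where the deposited values gave -0.0115. CDH10 in MDA-MB-231 cells was -0.12 (deposited), -0.0877 (median centring) and -0.0038 (cyclic loess). Its called rise thus became a fall that passed the test with the deposited values (limma adjusted p = 0.0472). CTBP2 was -0.14 (deposited) and -0.10 (median centring) in MDA-MB-231 cells and -0.0205 (deposited) in SKOV3 cells. The cause of these changes was not tested. The share of called genes that fell was 44.8% in MDA-MB-231 and 49.5% in SKOV3 cells, and 71.2% and 78.6% with the deposited values. Of 2302 values recomputed, 2097 kept their side, 177 lost a call, 11 gained one and 17 turned.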
